A study of Homo sapiens with 6 samples.

Results

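The mRNAs of 50 DNA replication and S-phase genes were followed after knockdown of IGF2BP1 in cells labelled NCI-H929, an established human multiple myeloma cell line. The genes were taken by name from the 20030 genes of the deposited count table, and cover origin licensing, the replisome, deoxynucleotide supply, chromatin assembly and repair at the fork. All 50 were listed and all 50 passed the filter on low counts. RNA-seq had been made from 3 libraries labelled IGF2BP1 knockdown (IGF2BP1-KD) and 3 labelled IGF2BP1 negative control (IGF2BP1-NC). Per the study's methods, the cells were transduced with an shRNA lentivirus whose vector carries a human U6 promoter and a puromycin resistance gene, and stable transfectants were kept by drug selection. The methods list 2 target sequences for IGF2BP1 and do not state which of them the libraries carry, nor what the control vector holds. No source says that the replicates came from separate cultures, so the p-values measure the spread between these libraries, which may be technical.

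IGF2BP1 is an RNA-binding protein that reads m6A-modified mRNAs and is known for stabilising them. The members act in the order in which a cell copies its DNA. In G1, ORC, CDC6 and CDT1 load the MCM2 to MCM7 helicase onto origins, and geminin blocks a further round of loading. At the start of S phase CDC45 and the GINS complex join MCM2 to MCM7 to make the active helicase, DNA polymerases with the PCNA clamp and its RFC loader copy both strands, and FEN1 and LIG1 join the Okazaki fragments of the lagging strand. Many of these genes are known targets of E2F transcription factors, which switch them on as cells pass from G1 into S phase. In bulk RNA, fewer cells in S phase and less of an mRNA per S-phase cell cannot be told apart.

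Of the 50 members, 14 were lower and 2 were higher in the knockdown than in the control cells at an adjusted p under 0.05 (two-sided quasi-likelihood test of edgeR, with p-values adjusted by Benjamini-Hochberg over all 11994 genes tested). These are 28.0% and 4.0% of the members, where 14.5% of all tested genes were lower, 13.7% were higher and 28.2% had a call in either direction. The members were chosen with earlier results of these data known, so their shares here and below are a description only. The lower members were CDCA7, CHAF1B, POLD1, LIG1, RFC2, CDC45, CHAF1A, BLM, RRM1, WDR76, CDT1, FEN1, MCM10 and CDC6, and the higher ones were GINS4 and PRIM1. Neither rise was stable, since the number higher was 1 without IGF2BP1-NC library 1 or IGF2BP1-KD library 1 and 0 without any 1 of the other 4 libraries. The falls were small. The largest, that of CDCA7, was by 37.8%, and none of the 50 members changed by 2-fold. The 6 MCM2 to MCM7 subunits, PCNA, E2F1 and the RPA genes had no call.

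The log2 fold change was negative for 40 of the 50 members, where 50.7% of all tested genes had a negative one. Its median over the members was -0.105, beside -0.0048 over all genes tested. The FPKM of every IGF2BP1-KD library lay below that of every IGF2BP1-NC library for 20 of the 50 members (22.2% of all genes tested) and above it for 6 (23.7% of all genes tested). All 14 members called lower were among these 20. Without adjustment of the p for the number of genes, 17 members were lower and 3 higher, where 20.7% of all tested genes were lower and 20.1% higher. The plot of the members by role shows the 14 lower genes in 8 of the 11 roles.

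**Figure D1:**
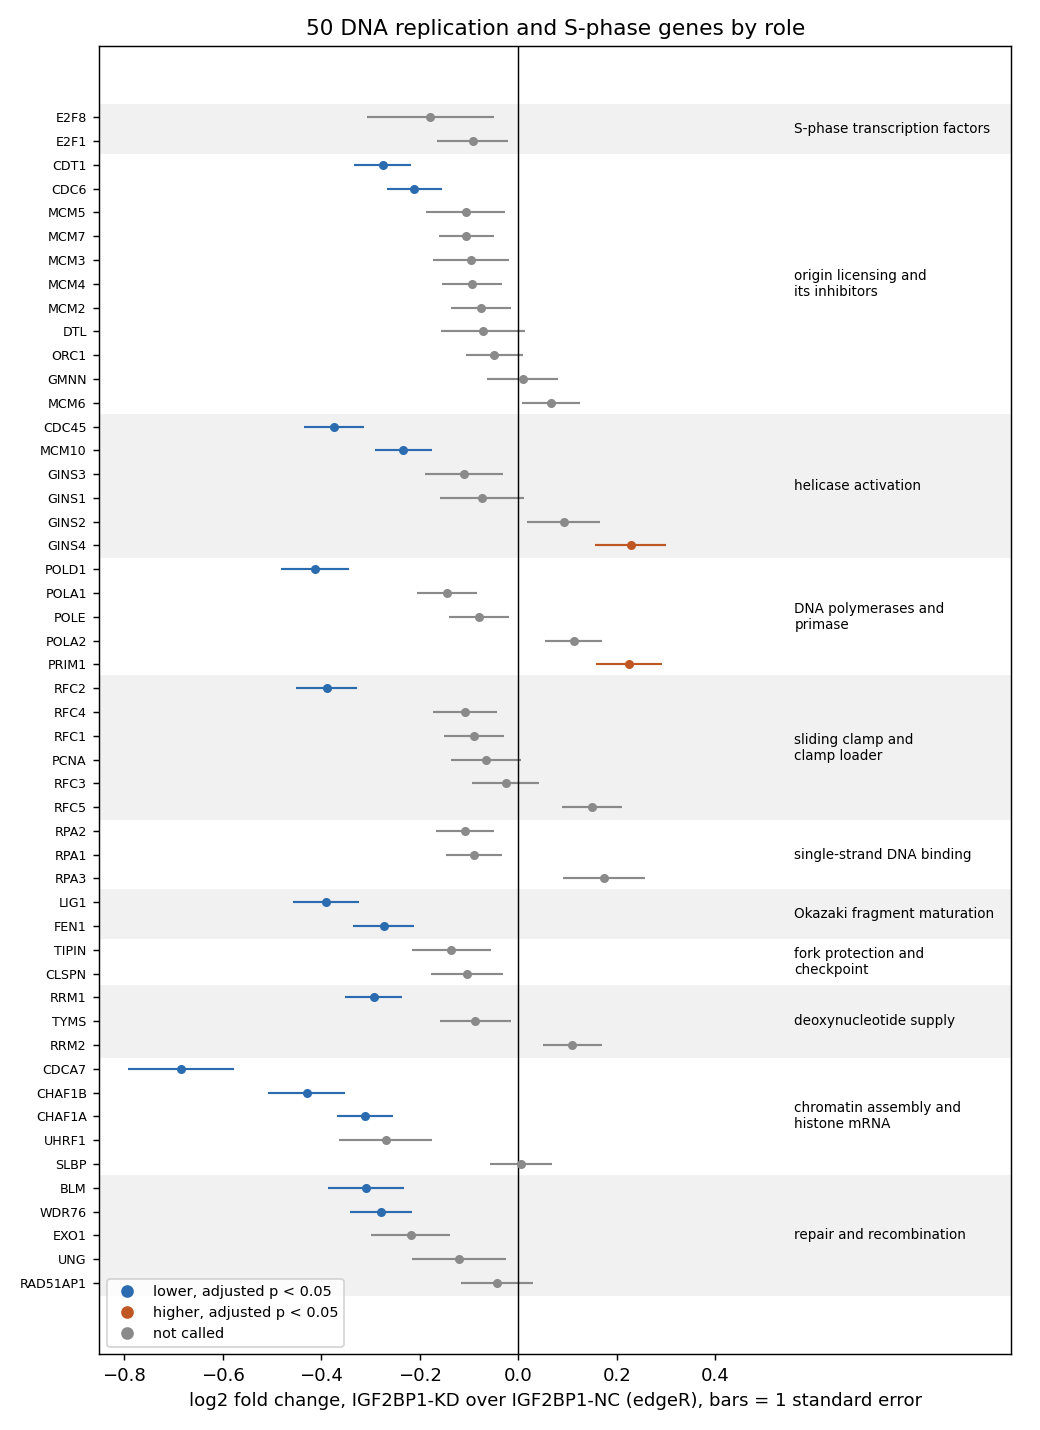
The log2 fold change of IGF2BP1-KD over IGF2BP1-NC is plotted for each of the 50 members, grouped by role, with bars of 1 standard error and colours for the edgeR call at an adjusted p under 0.05. The values run from -0.68 for CDCA7 to 0.23 for GINS4, and 40 of the 50 points lie left of 0.

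Taken as a whole, the counts of the 50 members came to a CPM (counts scaled to the same library total) of 9501, 9701 and 9692 in IGF2BP1-NC libraries 1, 2 and 3, and of 8770, 8928 and 8900 in IGF2BP1-KD libraries 1, 2 and 3. The means were 9632 ± 113 CPM and 8866 ± 84.2 CPM (SD, n = 3 each), and the groups did not overlap. The ratio of the means was 0.921, and it stayed between 0.914 and 0.926 when single libraries were left out. No library alone carried the shift, since the median of the members against their IGF2BP1-NC mean was -0.134, -0.099 and -0.092 on the log2 scale in the 3 IGF2BP1-KD libraries and -0.037, 0.017 and 0.015 in the 3 IGF2BP1-NC libraries. Each of the 14 lower genes was below its IGF2BP1-NC mean in each of the 3 IGF2BP1-KD libraries.

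The libraries held 16885449 to 18112179 counts, and a member had 493 to 18456 counts in a library, so that none was near the limit of 3 counts (0.166 to 0.178 CPM) that a count of 0 allows. Such limits cover counting error only. The knockdown was read from IGF2BP1 itself. Its FPKM was 48.1, 43.7 and 49.1 in IGF2BP1-NC and 13.5, 12.9 and 12.8 in IGF2BP1-KD cells, a log2 fold change of -1.85 (standard error, SE, 0.065). The plasma cell label was checked against 13 markers. Of these, 3 were above 1 CPM in every library and 7 stayed at 3 counts or fewer in all of them, among them TNFRSF17, IRF4, CD38 and POU2AF1, while CD27 was at 0. Most markers of the labelled cell type, 8 of 13, thus had 10 counts or fewer in every library. All 12 erythroid markers were above 1 CPM in every library, so the expression did not match the plasma cell label, and the identity of the cells is in doubt. Their summed level was 7600 to 8682 CPM in IGF2BP1-NC and 7781 to 8623 CPM in IGF2BP1-KD cells. HBE1 alone held 4503 to 5441 CPM of a library, so the sum says little of the other erythroid markers. At an adjusted p under 0.05, 5 of the 12 were lower (41.7%) and SLC4A1 was higher (8.33%, log2 fold change 2.50). Of all tested genes, 14.5% were lower and 13.7% higher. Of 10 granulocyte markers, 3 were above 1 CPM in every library. The summed level of the 10 was 27.7 to 38.1 CPM in IGF2BP1-NC against 199, 228 and 505 CPM in IGF2BP1-KD libraries 1, 2 and 3. PRG2 reached 231 CPM and MS4A3 256 CPM, while no other marker of this list passed 4.36 CPM in any library. The rise of the sum thus rested on PRG2 and MS4A3 and was not one of granulocyte markers in general. The part of these transcripts in the changes of the members was not tested. Without IGF2BP1-KD library 3, which had the highest granulocyte sum, 13 members were lower and 0 higher. That fit keeps IGF2BP1-KD libraries 1 and 2, whose granulocyte sums were also above every control library. It therefore cannot tell the part of these transcripts.

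The promoters of members with and without a fall are shown because E2F-controlled genes are often recognised by a short motif near their start. RefSeq windows (GRCh38.p14, 250 bases before to 50 bases after each start) were found for 43 of the 50 members. Each was searched on both strands for TTTCGCGC and TTTGGCGC, and for TTTCCCGC and TTTGCCGC, a pair of further forms added after the first count had been seen. In the stretches upstream of the start given here 5′ to 3′ on the gene's strand, capitals mark the matches. The forms can overlap, as in MCM6, where TTTGGCGC and the reverse complement of TTTCGCGC share 4 bases.
MCM6 (not called, chr2:135876444-135876623, minus strand): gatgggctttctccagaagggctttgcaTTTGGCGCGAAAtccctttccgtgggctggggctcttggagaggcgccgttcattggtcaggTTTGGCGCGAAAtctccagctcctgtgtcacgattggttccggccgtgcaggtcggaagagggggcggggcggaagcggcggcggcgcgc
POLA2 (not called, chr11:65261782-65261961, plus strand): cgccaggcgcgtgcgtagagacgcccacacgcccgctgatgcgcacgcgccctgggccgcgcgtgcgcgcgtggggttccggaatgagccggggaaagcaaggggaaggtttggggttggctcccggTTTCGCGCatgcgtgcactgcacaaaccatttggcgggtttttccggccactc
E2F1 (not called, chr20:33686386-33686565, minus strand): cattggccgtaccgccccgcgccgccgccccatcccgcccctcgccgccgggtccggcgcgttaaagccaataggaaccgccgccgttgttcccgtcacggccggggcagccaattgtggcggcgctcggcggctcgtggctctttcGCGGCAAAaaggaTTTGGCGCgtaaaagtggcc
LIG1 (lower, chr19:48170345-48170524, minus strand): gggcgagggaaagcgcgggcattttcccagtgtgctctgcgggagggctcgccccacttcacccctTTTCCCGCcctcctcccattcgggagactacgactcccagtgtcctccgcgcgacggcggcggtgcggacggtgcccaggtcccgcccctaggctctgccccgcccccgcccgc
CHAF1B (lower, chr21:36385212-36385391, plus strand): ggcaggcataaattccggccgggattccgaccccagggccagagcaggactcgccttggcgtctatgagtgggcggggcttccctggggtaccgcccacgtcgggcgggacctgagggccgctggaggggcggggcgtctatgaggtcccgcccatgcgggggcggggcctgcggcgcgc
CDC45 (lower, chr22:19479740-19479919, plus strand, 1 of 3 windows): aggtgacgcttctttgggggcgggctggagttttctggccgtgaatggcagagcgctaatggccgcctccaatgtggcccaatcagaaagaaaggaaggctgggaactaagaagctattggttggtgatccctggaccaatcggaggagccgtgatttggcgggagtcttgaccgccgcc

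The first pair of forms was found in 15 of the 43 members with a window (34.9%), beside 1.4% of all 27305 genes of the promoter table and 2.51% of the tested genes with a window. Among the members called lower it was found in 1 of 13, CDC6, and among those without a call in 14 of 29 (48.3%). With all 4 forms the counts were 25 of 43 members (58.1%), beside 3.99% of all genes and 6.79% of the tested genes. They were 4 of 13 among the lower members (CDC6, CDCA7, CDT1 and LIG1) and 21 of 29 among those without a call (72.4%). GINS4 has no window in the table, and that of PRIM1 held 0 matches. The motif was thus common in the members' promoters, and was found in a smaller share of the genes called lower than of those without a call. This description was not tested, and it depends on the threshold and on the forms searched. UHRF1 and EXO1, counted without a call, hold a form of the first pair at log2 fold changes of -0.27 and -0.22. The CDC45 and POLA2 stretches hold tttggcgg, which differs from TTTGGCGC in its last base and was not searched. A match is no binding site by itself, and no match says only that these letters are not in this window.

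Among the S-phase transcription factors neither member had a call. E2F1, an activator of the whole programme, had an FPKM of 21.3, 23.2 and 22.2 in IGF2BP1-NC and 20.1, 20.7 and 22.2 in IGF2BP1-KD cells. The groups overlapped, and its log2 fold change was -0.093 (95% interval -0.25 to 0.065, adjusted p = 0.366). E2F8, a repressor of E2F targets, had a log2 fold change of -0.18 with a wide standard error of 0.13.

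In origin licensing the loaders CDT1 and CDC6 were lower, and neither ORC1 nor the MCM2 to MCM7 subunits had a call. CDT1, which brings MCM2 to MCM7 to the origin, had an FPKM of 86.5, 86.6 and 83.4 in IGF2BP1-NC and 69.0, 69.7 and 74.9 in IGF2BP1-KD cells. CDC6, the ATPase that works with it, had 51.8, 53.0 and 51.1 FPKM against 44.7, 46.6 and 44.5 FPKM. In both genes every knockdown library lay under every control library. The log2 fold change was -0.27 (SE 0.058, adjusted p = 0.00549) for CDT1 and -0.21 (SE 0.056, adjusted p = 0.0165) for CDC6. CDC6 was the weaker of them, and lost its call when library 2 of the controls or library 1 or 3 of the knockdown was left out (adjusted p up to 0.0666). The log2 fold change was -0.049 for ORC1, the largest ORC subunit, 0.0085 for GMNN (geminin, which inhibits CDT1) and -0.072 for DTL, the receptor subunit of the ubiquitin ligase that degrades CDT1. None of these 3 had a call, and the sign of DTL rested on IGF2BP1-NC library 1, without which it was 0.036.

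MCM2 to MCM7 are the 6 subunits of the replicative helicase. MCM7, at 269 FPKM the most abundant member per length, had 283, 271 and 279 FPKM in IGF2BP1-NC and 264, 253 and 263 FPKM in IGF2BP1-KD cells. It was the only 1 of the 6 whose groups did not overlap, and its adjusted p was 0.177. MCM2 had 86.5, 89.2 and 93.9 FPKM against 87.5, 86.5 and 83.9 FPKM, and MCM5 had 75.2, 82.7 and 74.8 FPKM against 69.4, 67.2 and 81.3 FPKM. In both the groups overlapped. MCM3 lay between 127 and 141 FPKM in IGF2BP1-NC and between 118 and 141 FPKM in IGF2BP1-KD cells. MCM4 lay between 122 and 132 FPKM in IGF2BP1-NC and between 118 and 123 FPKM in IGF2BP1-KD cells. MCM6 had 64.0, 63.9 and 65.7 FPKM against 64.2, 70.1 and 69.9 FPKM, and was the only subunit with a positive log2 fold change. Over the 6 subunits the log2 fold changes lay between -0.107 and 0.066 with a median of -0.095, and their 95% intervals reached from -0.28 for MCM5 to 0.20 for MCM6.

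Helicase activation held both directions. CDC45, the partner that turns MCM2 to MCM7 into the active helicase, had an FPKM of 186, 195 and 186 in IGF2BP1-NC and 149.9, 151 and 139.7 in IGF2BP1-KD cells. It fell by 22.9%, with a log2 fold change of -0.37 (SE 0.061, adjusted p = 0.00134), and the lowest control library was above the highest knockdown library. MCM10, which binds CDC45 and MCM2 to MCM7 as origins fire, had 25.6, 24.5 and 25.1 FPKM against 20.7, 22.1 and 21.8 FPKM. It fell by 14.9% (adjusted p = 0.0130), and its adjusted p was 0.0659 without IGF2BP1-KD library 1. The GINS complex has 4 subunits, of which 1 had a call. GINS4 had 14.3, 15.2 and 15.0 FPKM in IGF2BP1-NC and 16.7, 17.2 and 18.7 FPKM in IGF2BP1-KD cells, a log2 fold change of 0.23 (SE 0.071, adjusted p = 0.0339). Its call was lost in each of the 6 fits with a library left out, with an adjusted p up to 0.120. GINS4 shares 1145 annotated exon bases with a long non-coding RNA gene on the opposite strand. The log2 fold changes of GINS1, GINS2 and GINS3 were -0.073, 0.092 and -0.11, none of them past the threshold.

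Among DNA polymerases and primase, the call went to 1 gene in each direction. POLD1, the catalytic subunit of DNA polymerase delta, which copies the lagging strand, had an FPKM of 74.2, 75.9 and 72.0 in IGF2BP1-NC and 59.4, 57.7 and 51.0 in IGF2BP1-KD cells. It fell by 24.9% (log2 fold change -0.41, SE 0.069, adjusted p = 0.00159). POLD1 (chromosome 19, from 50384204 to 50418018 on GRCh38) shares 426 annotated exon bases with an overlapping gene on the same strand. POLE, the catalytic subunit of the leading strand polymerase, had a log2 fold change of -0.080 and no call. PRIM1, the primase subunit that makes the RNA primers, had 69.6, 65.3 and 60.8 FPKM against 72.4, 79.9 and 77.9 FPKM. Its log2 fold change was 0.22 (SE 0.067, adjusted p = 0.0289). The call of PRIM1 was lost in 4 of the 6 fits with a library left out, those without library 2 or 3 of either group (adjusted p up to 0.124), and also with the replicate number as a block (adjusted p = 0.0536). PRIM1 shares 362 annotated exon bases with an unnamed protein-coding gene and 139 with NACA on the same strand, and 132 with HSD17B6 on the opposite strand, and which gene such reads went to is not known. POLA1 and POLA2, which form DNA polymerase alpha with primase, had log2 fold changes of -0.14 and 0.11 and no call.

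The clamp and its loader differed subunit by subunit. PCNA, the ring that tethers the polymerases to DNA, had an FPKM of 167, 194 and 190.3 in IGF2BP1-NC and 173, 179.6 and 178 in IGF2BP1-KD cells, and its groups overlapped (log2 fold change -0.066, 95% interval -0.22 to 0.090). RFC2, a small subunit of the clamp loader, had 74.9, 79.0 and 73.5 FPKM against 57.2, 61.1 and 56.7 FPKM. RFC2 fell by 23.6% (log2 fold change -0.39, SE 0.062, adjusted p = 0.00120), the smallest adjusted p among the 50 members in this fit. The other 4 loader subunits had no call, with log2 fold changes of -0.11 for RFC4, -0.090 for RFC1, -0.025 for RFC3 and 0.15 for RFC5. For RFC5 the 3 knockdown libraries (19.9, 20.7 and 19.9 FPKM) were all above the control libraries (18.7, 17.8 and 17.7 FPKM), at an adjusted p of 0.0872. The 3 subunits of RPA, which coats single-stranded DNA, had log2 fold changes of -0.090 for RPA1, -0.11 for RPA2 and 0.17 for RPA3, none of them called.

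The Okazaki fragment maturation role holds only 2 members, and 2 of 2 were lower, where 14.5% of all tested genes were. Among genes outside the members, 2 subunits of RNase H2, which removes RNA from DNA, were higher. These were RNASEH2A and RNASEH2B, with log2 fold changes of 0.48 and 0.29, while RNASEH2C had no call. LIG1, the ligase that seals the nicks between fragments, had an FPKM of 48.4, 45.1 and 42.7 in IGF2BP1-NC and 36.0, 36.2 and 32.5 in IGF2BP1-KD cells. FEN1, the nuclease that trims the flap left by the RNA primer, had 131, 141 and 138 FPKM against 113, 119 and 110.1 FPKM. The groups were apart for both genes. The log2 fold change was -0.39 (SE 0.067, adjusted p = 0.00189) for LIG1 and -0.27 (SE 0.062, adjusted p = 0.00807) for FEN1, and both kept an adjusted p under 0.05 in all 6 fits with a library left out. FEN1 shares 49 exon bases with FADS2 on the same strand. Fork protection had 0 of 2 called. CLSPN, which passes the signal of stalled forks to CHK1, and TIPIN, the partner of TIMELESS, had log2 fold changes of -0.10 and -0.14.

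Ribonucleotide reductase, which makes deoxynucleotides, showed a fall of 1 of its subunits. RRM1, the large subunit, had an FPKM of 69.0, 69.9 and 69.9 in IGF2BP1-NC and 57.8, 59.0 and 54.9 in IGF2BP1-KD cells. It fell by 18.4% (log2 fold change -0.29, SE 0.058, adjusted p = 0.00381). RRM2, the small subunit whose level is known to rise in S phase, had 104, 108 and 109.8 FPKM against 116, 121 and 112 FPKM. Every knockdown library of RRM2 was above every control library, with a log2 fold change of 0.11 (95% interval -0.023 to 0.24, adjusted p = 0.199). TYMS, which makes thymidylate, had 206, 234 and 238 FPKM against 212, 220.1 and 212 FPKM, and its groups overlapped. TYMS shares 967 annotated exon bases with ENOSF1 on the opposite strand. Without IGF2BP1-NC library 1, the lowest of its control libraries, TYMS was lower with an adjusted p of 0.0298.

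Of the chromatin assembly and histone mRNA members 3 of 5 were lower, where 14.5% of all tested genes were. With 5 genes this share is not read as a result about the role. CHAF1A and CHAF1B, the large and middle subunits of CAF-1, which places new nucleosomes behind the fork, fell together. CHAF1A had an FPKM of 41.9, 41.5 and 43.3 in IGF2BP1-NC and 34.8, 33.2 and 34.9 in IGF2BP1-KD cells. CHAF1B had 24.3, 23.2 and 20.9 FPKM against 18.0, 17.3 and 15.8 FPKM. Their log2 fold changes were -0.31 (SE 0.057, adjusted p = 0.00254) and -0.43 (SE 0.077, adjusted p = 0.00236), and neither gene's groups overlapped. CHAF1B (chromosome 21, from 36385392 to 36419015 on GRCh38) shares 89 exon bases with MORC3 on the same strand.

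CDCA7, a partner of the chromatin remodeller HELLS in keeping DNA methylation through replication, lies on chromosome 2 from 173354820 to 173368997. It had an FPKM of 33.8, 33.3 and 29.8 in IGF2BP1-NC and 20.2, 23.5 and 17.0 in IGF2BP1-KD cells, with no overlap. Its log2 fold change, the largest in size among the members, was -0.68 (SE 0.11, 95% interval -0.92 to -0.45, adjusted p = 0.00149), between -0.80 and -0.57 when single libraries were left out. UHRF1, which brings DNMT1 to newly copied DNA, had 23.5, 27.7 and 30.0 FPKM against 24.1, 21.7 and 22.2 FPKM and a log2 fold change of -0.27. IGF2BP1-NC library 1 lay among the knockdown libraries of UHRF1, whose adjusted p was 0.0566 in all libraries and 0.00104 without that library. SLBP, the protein that binds the stem-loop of histone mRNAs, had a log2 fold change of 0.0057.

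Of the repair and recombination members, 2 of 5 were lower, where 14.5% of all tested genes were. BLM, a RecQ helicase that resolves recombination intermediates, had an FPKM of 17.6, 17.1 and 17.8 in IGF2BP1-NC and 12.6, 14.6 and 15.4 in IGF2BP1-KD cells. It fell by 19.3% (adjusted p = 0.0127), and without IGF2BP1-KD library 1, its lowest, the adjusted p was 0.0568. WDR76, a WD-repeat protein, had 22.9, 21.3 and 21.2 FPKM against 17.4, 18.6 and 18.3 FPKM, and fell by 17.6% (adjusted p = 0.00831). EXO1, an exonuclease of mismatch repair and end resection, had 53.8, 42.3 and 43.2 FPKM against 39.2, 40.1 and 41.2 FPKM. IGF2BP1-NC library 1 stood well above the other two, and EXO1 missed the threshold (log2 fold change -0.22, adjusted p = 0.0639). UNG, which removes uracil from DNA, and RAD51AP1, a DNA-binding accessory factor of homologous recombination, had log2 fold changes of -0.12 and -0.043.

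**Figure D2:**
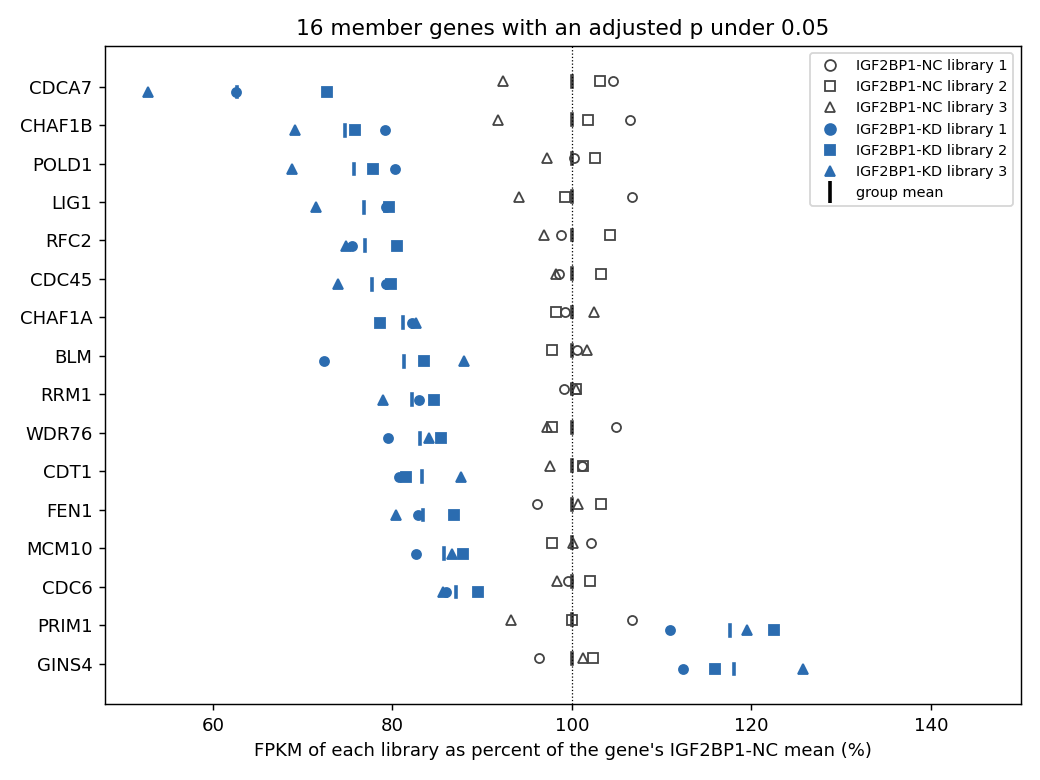
The FPKM of each library is drawn as a percent of the gene's IGF2BP1-NC mean for the 16 members with a call, with open symbols for the 3 IGF2BP1-NC and filled symbols for the 3 IGF2BP1-KD libraries and short bars for the group means. For the 14 genes from CDCA7 to CDC6 every filled symbol lies left of every open one, and for PRIM1 and GINS4 every filled symbol lies right of them.

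The level of a member was set beside its change. Over the 50 members, Pearson's r between the log2 of the mean FPKM and the log2 fold change was -0.034 and Spearman's rho was -0.036, across genes of the same 6 libraries, which are not independent. The mean FPKM ranged from 7.49 for RFC3 to 269 for MCM7 with a median of 37.4, and the members called lower had a median of 44.4 FPKM against 34.6 FPKM for those without a call. The standard error of a member's log2 fold change had a median of 0.067. Of the 14 lower members, 11 kept their call in all 6 fits with a library left out, the exceptions being CDC6, MCM10 and BLM. With 2 libraries in an arm these fits pool the spread over both arms. All 14 kept an adjusted p under 0.05 under each of 11 other ways of fitting all libraries. At an adjusted p under 0.01 the lower members numbered 11, without CDC6, MCM10 and BLM.

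A further list of 58 replication genes outside the members gave 7 lower (12.1%) and 4 higher (6.9%), with a median log2 fold change of -0.058. Neither share was above that of all tested genes (14.5% lower and 13.7% higher), so the calls are given as those of single genes. The largest fall was that of CCNE1, the cyclin that starts S phase with CDK2, from 22.4, 28.3 and 27.5 FPKM to 19.3, 19.0 and 17.5 FPKM (log2 fold change -0.50, adjusted p = 0.00443). DNMT1, the maintenance DNA methyltransferase, fell from 81.2, 78.1 and 83.2 FPKM to 64.6, 60.8 and 63.3 FPKM (log2 fold change -0.37, adjusted p = 0.00109). These were the 2 lower genes of the list with a call in all 6 fits with a library left out. CDC7, the kinase that fires origins, FBXO5, an inhibitor of the anaphase-promoting complex, the CDK phosphatase CDC25A, the mismatch repair gene MSH6 and the transcription factor E2F3 had log2 fold changes of -0.25, -0.27, -0.21, -0.21 and -0.19, each lost in at least 2 of those fits. The call of E2F3 was also lost under 9 of the 11 other ways of fitting all libraries.

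Of the 4 higher genes in that list, RNASEH2A, the catalytic subunit of RNase H2, which removes RNA from DNA, rose most. Its FPKM was 42.3, 47.0 and 42.4 in IGF2BP1-NC and 59.4, 60.5 and 65.0 in IGF2BP1-KD cells (log2 fold change 0.48, adjusted p = 0.00089). RNASEH2B, another subunit of that enzyme, the histone chaperone ASF1B and the cyclin CCNA2 had log2 fold changes of 0.29, 0.25 and 0.24. RNASEH2A and ASF1B kept their calls in all 6 fits with a library left out. The other 47 genes of the list had no call. The 4 higher genes became 2 without IGF2BP1-KD library 2, and the 7 lower genes became 4 without IGF2BP1-NC library 3, 2 without IGF2BP1-KD library 1, 3 without IGF2BP1-KD library 2 and 3 without IGF2BP1-KD library 3.

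A list of 26 G2 and mitosis genes was read beside the members, since both are known to be high in dividing cells. Of these, 11 were higher (42.3%, beside 13.7% of all tested genes) and 0 were lower in edgeR, with a median log2 fold change of 0.18. The list was chosen with earlier results of these data known, so its share is a description only. At an unadjusted p under 0.05, 16 were higher and 0 lower, where 20.1% and 20.7% of all tested genes were, and DESeq2 also called 11 and 0. KIF20A, a kinesin of cytokinesis, CCNB1, the cyclin of mitotic entry, and HMMR, a spindle protein, had the largest log2 fold changes, 0.59, 0.54 and 0.47. The summed level of the 26 genes was 4421 ± 200 CPM in IGF2BP1-NC and 5099 ± 237 CPM in IGF2BP1-KD cells (SD, n = 3 each), and the groups did not overlap, with the knockdown libraries on the higher side, where they were on the lower side for the members. Between 7 and 16 of the 26 genes were higher when single libraries were left out, the lowest number without IGF2BP1-KD library 2.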

How the data were processed

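RNA-seq of 6 libraries from cells labelled NCI-H929 was used, 3 labelled IGF2BP1 knockdown and 3 labelled negative control, grouped by these labels. Per the study's methods, the authors used Trimmomatic on the reads, HISAT2 with GRCh38 for mapping and HTSeq-count for counting. Their deposited counts are raw whole numbers per gene. The authors' deposited FPKM values, scaled by gene length and mapped reads, are said to come from Cufflinks. A stranded kit was used. Versions, the strand setting of the counting and the annotation release are not given in the sources used here, so the assignment of reads on overlapping genes is unknown.

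Counts were tested in R 4.3.3 with edgeR 4.0.16 (filterByExpr, TMM factors, robust glmQLFit, glmQLFTest, two-sided, Benjamini-Hochberg adjustment over 11994 genes). Standard errors were taken as the log2 fold change over the root of the F statistic. Totals per library were 16885449 to 18112179, and the biological coefficient of variation was 9.55%. No library repeated another, as each pair differed in at least 15036 genes. Alternatives used DESeq2 1.42.0, limma 3.58.1 (voom on counts, and log2(FPKM + 1) or log2(FPKM + 0.1) with a mean FPKM of at least 1), other scaling factors and filters, a block, a threshold of 0.01 and each library left out. Scripts were tested on simulated data with 200 changed genes, 100 by 2-fold and 100 by 1.5-fold. There edgeR called 89 of the first and 72 of the second, and 6 unchanged genes. Changes under 1.5-fold, such as those of all members but CDCA7, were not simulated. Coordinates and exon overlaps are from GENCODE release 44 (GRCh38), and promoters from RefSeq (GRCh38.p14). Tables and figures used Python 3.11.15, pandas 2.3.3 and matplotlib 3.10.9.

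The members and lists were chosen with earlier results of these data known. Named are IGF2BP1, all 50 members, with values per library for those past the threshold and for E2F1, PCNA, MCM2 to MCM7, RRM1, RRM2, TYMS and CDC6, and the other replication genes past the threshold. Values of UHRF1, EXO1 and RFC5 per library, and the G2 and mitosis genes named, were chosen after they had been seen.

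The replicate numbers were checked for pairing. The deviations of same-numbered libraries from their group means correlated at -0.052, 0.036 and -0.106, so no pairing was seen. With so few libraries in a group, these values cannot exclude a small effect shared by same-numbered libraries.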

Additional observations from a re-analysis of the deposited data

How the results depend on the processing

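Of the 50 members, 11 to 16 were lower under the settings with all libraries and 11 to 17 with each library left out, where 14 were lower in the reported fit. The number higher, 2, was 0 to 3 under the settings with all libraries and 0 to 1 with a library left out. It was 1 with limma on unfiltered log2(FPKM + 1), 1 with the replicate block and 0 at an adjusted p under 0.01. The members' median log2 fold change of -0.105 was -0.074 with upper-quartile factors and -0.138 to -0.079 with a library left out. Of the other replication genes, the 4 higher became 2 at an adjusted p under 0.01 and 2 to 5 with a library left out, and the 7 lower became 4 with limma on unfiltered log2(FPKM + 1), 2 at an adjusted p under 0.01 and 2 to 10 with a library left out. The 11 higher G2 and mitosis genes became 7 at an adjusted p under 0.01 and 7 to 16 with a library left out. The number of members with a promoter motif, 15, became 25 with the added forms. The causes were not tested.

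Signs turned only for log2 fold changes near 0. GMNN was -0.00089 and SLBP -0.0037 without the count filter, and RFC3 was 0.0047 with upper-quartile factors. With a library left out, GMNN ranged from -0.059 to 0.049, SLBP from -0.037 to 0.053, RFC3 from -0.070 to 0.025 and DTL from -0.122 to 0.036. Members without a call gained 1 in some fits, RFC5 with upper-quartile factors (adjusted p = 0.0441), UHRF1 with DESeq2 (0.0373) or no count filter (0.0314), EXO1 with no count filter (0.0334), and UHRF1, TYMS and UNG without IGF2BP1-NC library 1.

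With the replicate number as a block, 14 members were lower and 1 higher, and 5 other replication genes were lower. Not every library correlated best with its own number, and the numbers mark no shared culture or day in the labels. The median standard error of a member's log2 fold change was 0.067, and a missing call does not show that a gene did not change.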

Other observations

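The KEGG terms in the deposited tables, read after the members' values had been seen, place 22 members among the 35 tested genes of the DNA replication pathway. Of these 22 members, 4 were lower and 1 was higher, and of the 13 other genes of the pathway 0 were lower and 2 were higher in edgeR, RNASEH2A and RNASEH2B. In mismatch repair, 3 of 12 members were lower, and of the 10 other genes 1 was lower (MSH6) and 0 were higher. In base excision repair, 3 of 6 members were lower, and of the 27 other genes 4 were lower and 3 higher. In nucleotide excision repair 3 of 12 members were lower, with 2 lower and 4 higher among the 32 other genes. In homologous recombination 2 of 5 members were lower, with 3 lower and 4 higher among 34 others. In the cell cycle pathway 2 of 11 members were lower, with 25 lower and 16 higher among 104 others. Of the whole DNA replication pathway 11.4% were lower and 8.57% higher. Over all tested genes 14.5% were lower and 13.7% higher, so that 4 of 22 is near the share of all genes. POLD1 and LIG1 belong to several of these pathways, so the counts share genes.

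Of the genes that keep DNA methylation through replication, picked after their values had been seen, CDCA7 and DNMT1 were lower, with log2 fold changes of -0.68 and -0.37. UHRF1 had -0.27 without a call in all libraries, and HELLS, the partner of CDCA7, had -0.12 (adjusted p = 0.334) at 2.21 to 2.63 FPKM in IGF2BP1-NC and 2.15 to 2.40 FPKM in IGF2BP1-KD cells.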
